A study of Mus musculus with 9 samples.

Results

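Oxidative phosphorylation was followed through its nuclear genes in 9 mouse liver tumors. In this pathway complexes I and II pass electrons from metabolic fuel to ubiquinone, complex III hands them to cytochrome c, and complex IV passes them to oxygen, while protons are pumped across the inner mitochondrial membrane. Complex V, the ATP synthase, lets the protons back and makes ATP. Most subunits are encoded in the nucleus and a few in the mitochondrial genome, and hepatocytes are rich in mitochondria. The members are all symbols in the files that begin with Nduf, Uqcr, Cox4 to Cox8 or Atp5, or are one of Sdha, Sdhb, Sdhc and Sdhd. They number 92 of 24421 symbols, with 45 in complex I, 4 in complex II, 8 in complex III, 18 in complex IV and 17 in complex V. The prefix also takes in complex I assembly factors (Ndufaf1 to Ndufaf7), and it places Ndufa4 with complex I, although the protein has since been assigned to complex IV. Atp5sl is counted with complex V by its prefix, although its symbol in GENCODE M21 is Dmac2. Mitochondrially encoded subunits were not analysed here.

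The tumors came from C57BL/6 mice at 11 weeks of age and form 3 groups of 3: S7HP+Snail (tumors 13, 14 and 15), S7HP (tumors 9, 11 and 12) and LHP (tumors 2, 3 and 6). Column names in the files tie S7HP to a Smad7 construct, S7HP+Snail to the same with Snail, and LHP to a Luc construct, while the letters H and P, shared by all 3 groups, and the promoters are not explained in the labels. Smad7 is the inhibitory Smad of the TGF-β pathway, and Snail (Snai1) is a transcriptional repressor of epithelial genes. Values are log2(quantile-normalized count + 1) from QuantSeq 3′ libraries, in which a transcript is read about once near its end, so long transcripts are not favored. Levels of different genes are set side by side on this scale as a description, since 3′ ends that match or overlap other genes can affect a count. Differences below are differences of group means on that scale.

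Quantile normalization gave all libraries almost the same total, between 19910396 and 19911234 normalized counts, so total depth is not preserved. The lowest value above 0 was log2 1.29 in S7HP tumor 11 and 1 in S7HP tumor 9, and lay between 0.29 and 0.42 in the other 7 tumors. These 2 tumors also had the fewest symbols above 0, at 16029 in tumor 11 and 16246 in tumor 9, against 16356 to 16671 in the others. Correlations across tested genes were lower within S7HP+Snail (0.864 to 0.9) than within S7HP (0.923 to 0.936) or LHP (0.939 to 0.945), as a description. The 15 hepatocyte markers summed to at least 83875 normalized counts in every tumor, and none of them was listed at 0 in all 9 tumors. Smad7 lay at 6.77 to 8 in S7HP+Snail, 6.28 to 6.81 in S7HP and 9.49 to 10.5 in LHP, and Snai1 at 7.31 to 8.53 in S7HP+Snail, 6.17 to 6.92 in S7HP and 9.93 to 11.16 in LHP. Smad7 was thus lower in the tumors named for it. Whether a 3′ library counts the constructs depends on the 3′ ends they carry, which the labels leave unstated, so these values are no check of the groups.

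Of the 92 members, 87 passed the filter (log2 of at least 4 in at least 3 libraries) and entered the tests, and 85 were at or above it in all 9 libraries. No member passed through the libraries of 1 group only. The tested members were abundant, with a median of their mean log2 values of 10.37, against 8.22 over the 14215 genes tested, and 75 of 87 lay above the median of all genes tested. Medians by complex were 10 for I, 10.34 for II, 10.57 for III, 11.32 for IV and 11.41 for V. The 5 members left out, Cox4i2, Cox6a2, Cox7b2, Cox8b and Cox8c, are isoforms best known from lung, muscle or testis. Cox7b2 and Cox8c were listed at 0 in all 9 libraries, and Cox8b was above 0 in S7HP+Snail tumor 14 only, at log2 1.83.

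The highest members of the complexes were mostly small subunits. Atp5g3, which encodes the c subunit of the ATP synthase rotor, led all members at 15.34 ± 0.20 in S7HP+Snail, 15.41 ± 0.35 in S7HP and 14.94 ± 0.03 in LHP (log2, SD, n = 3 each). Uqcrh, the hinge protein of complex III, was at 13.47 ± 0.20 in S7HP+Snail, 13.37 ± 0.29 in S7HP and 12.90 ± 0.11 in LHP. Cox6c, a small subunit of complex IV, was at 13.51 ± 0.46 in S7HP+Snail, 13.11 ± 0.26 in S7HP and 13.04 ± 0.13 in LHP. These 3 genes were called in no comparison, although Atp5g3 and Uqcrh lay higher in every S7HP tumor than in every LHP tumor. Ndufa2, an accessory subunit of complex I whose 3′ end overlaps Tmco6 on the other strand, was at 13.39 ± 0.20 in S7HP+Snail, 13.09 ± 0.17 in S7HP and 12.68 ± 0.30 in LHP. Sdhc, the membrane anchor of complex II, led its complex at a mean of 10.37 over the 9 tumors and is described below with the members that rose. Replicates were close for these genes: the median SD over members was 0.24 in S7HP+Snail, 0.29 in S7HP and 0.19 in LHP, against 0.45 in S7HP+Snail, 0.41 in S7HP and 0.35 in LHP over all genes tested. Over tested genes of similar level it was 0.39 in S7HP+Snail, 0.35 in S7HP and 0.30 in LHP.

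S7HP tumors are tied to Smad7 by their column names where LHP tumors are tied to Luc. Against LHP, 23 of 87 tested members rose in S7HP, 3 fell and 61 were not called (limma, Benjamini-Hochberg adjusted p under 0.05 over all genes). Over all genes tested 19% were called, 9.47% higher and 9.54% lower. The members called higher made up 26.4% of those tested and the members called lower 3.45%. The median difference over the members was 0.55, a fold of 1.46, against 0.02 over all genes, and 76 of 87 members (87.4%) were above 0, against 50.9% of all genes. In 49 members every S7HP tumor lay above every LHP tumor, and in 3 every S7HP tumor lay below, where the shares over all genes were 20.9% and 21.3%. Differences of more than 2-fold in either direction were found in 16 of 87 members (18.4%), a smaller share than the 32.3% over all genes tested. In bulk tumors, fewer cells of a type and less RNA per cell cannot be told apart.

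The rises were spread over all 5 complexes. Complex I had 9 of 45 members higher and 1 lower, with a median difference of 0.53. Complex II had 2 of 4 higher (median 0.77), complex III 4 of 8 higher (0.69), and neither had a member called lower, nor lower at an unadjusted p under 0.05. Complex IV had 4 of 13 tested members higher and 1 lower (0.62), and complex V 4 of 17 higher and 1 lower (0.52). The medians thus ran from 0.52 to 0.77, and no test was made between complexes.

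**Figure D1:**
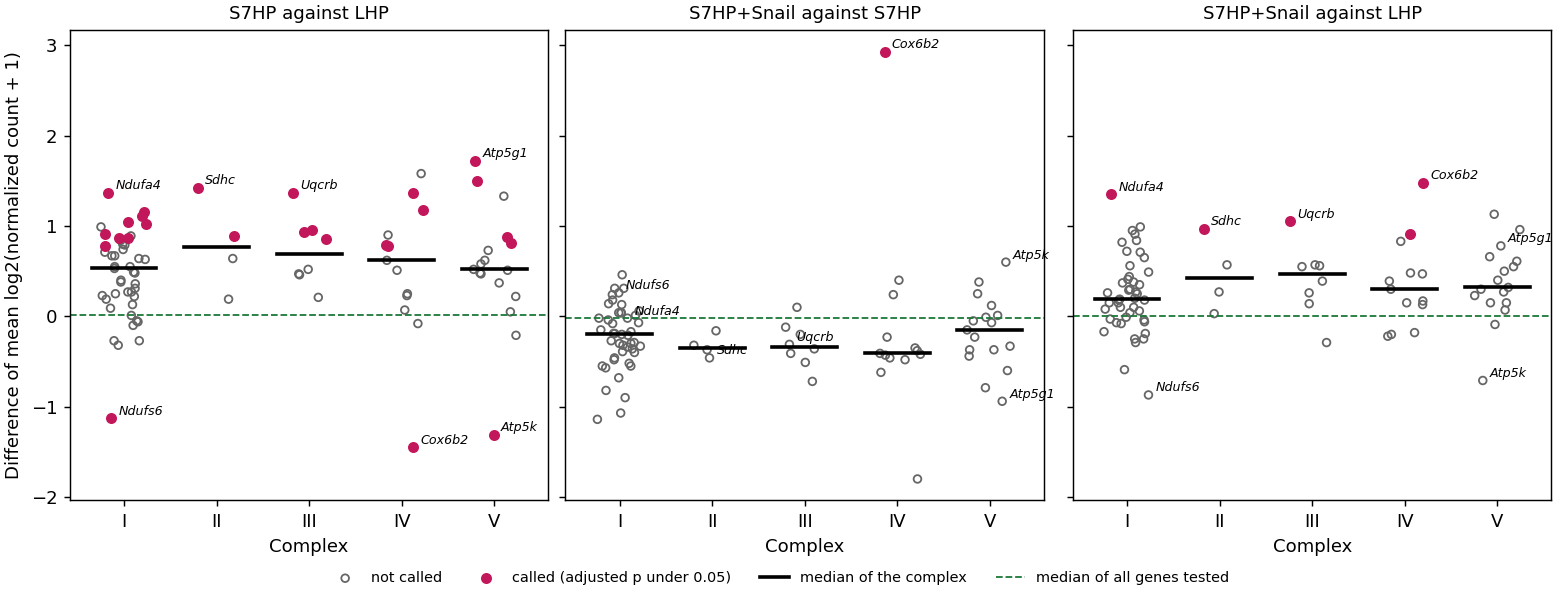
Difference of mean log2(normalized count + 1) for each tested member (points), by complex, in the 3 comparisons. Filled points passed the test (limma, Benjamini-Hochberg adjusted p under 0.05), black bars are medians of a complex, and the dashed line is the median of all genes tested. In S7HP against LHP all 5 medians lie between 0.52 and 0.77, and Cox6b2, Atp5k and Ndufs6 are the filled points below the line.

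Tumor by tumor, the median of the members' values, each centred on its mean over the 9 tumors, was -0.02, 0.05 and 0.08 in S7HP+Snail tumors 13, 14 and 15. The same median was 0.35, 0.42 and 0.06 in S7HP tumors 9, 11 and 12, and -0.27, -0.29 and -0.29 in LHP tumors 2, 3 and 6. All LHP tumors lay below all others, and S7HP tumor 12 lay within the range of the S7HP+Snail tumors. The share of all normalized counts that fell on the 92 members, tested or not, was likewise lowest in LHP. It was 1.13%, 1.17% and 1.15% in the S7HP+Snail tumors, 1.28%, 1.39% and 1.05% in the S7HP tumors and 0.922%, 0.921% and 0.944% in the LHP tumors. S7HP tumors 9 and 11, the highest for these genes, are also the pair with the highest of the lowest values above 0 and the fewest detected symbols, and the part of depth in the result was not tested. Without tumor 11 the members' median difference was 0.51, and without tumor 9 it was 0.53.

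**Figure D2:**
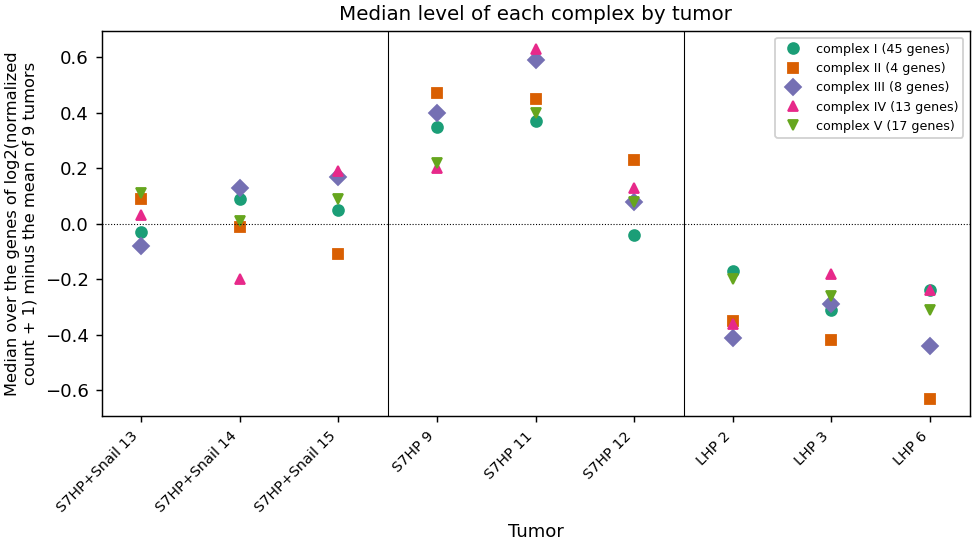
Median over the tested members of each complex of log2(normalized count + 1) minus the mean of 9 tumors, for each tumor (horizontal axis). All 5 complexes are below 0 in the 3 LHP tumors, and S7HP tumors 9 and 11 hold the highest values, with complex IV at 0.63 in tumor 11.

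The counts of called members depended on single libraries. Without LHP tumors 2, 3 or 6 the members called higher numbered 10, 12 and 8, and without S7HP tumors 9 or 11 they numbered 8 and 10, while without S7HP tumor 12 they numbered 28. Members called lower numbered 0 without LHP tumor 6 or S7HP tumor 12 and 1 without LHP tumor 3 or S7HP tumor 11. Calls over all genes tested moved as well, from 2702 in the main fit to between 1465 and 3163 with 1 tumor left out. The 61 members that were not called ran from -0.32 (Ndufb8, a complex I accessory subunit) to 1.58 (Cox7a1) in their differences. Among them Ndufa7 (0.79 ± 0.25), Cox7a2 (0.90 ± 0.30) and Atp5s (1.33 ± 0.55), named after their values were seen, lay higher in all S7HP tumors than in all LHP tumors without passing (SE, limma, Benjamini-Hochberg adjusted p = 0.0513, 0.0609 and 0.116). The direction of all 26 called members was the same in all 16 alternatives. Of these 26 calls, 7 were kept in all 16 (Ndufa4, Sdhb, Sdhc, Uqcrb, Cox6b1, Cox7c and Atp5g1), and each of the other 19 was lost in at least 2.

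**Figure D3:**
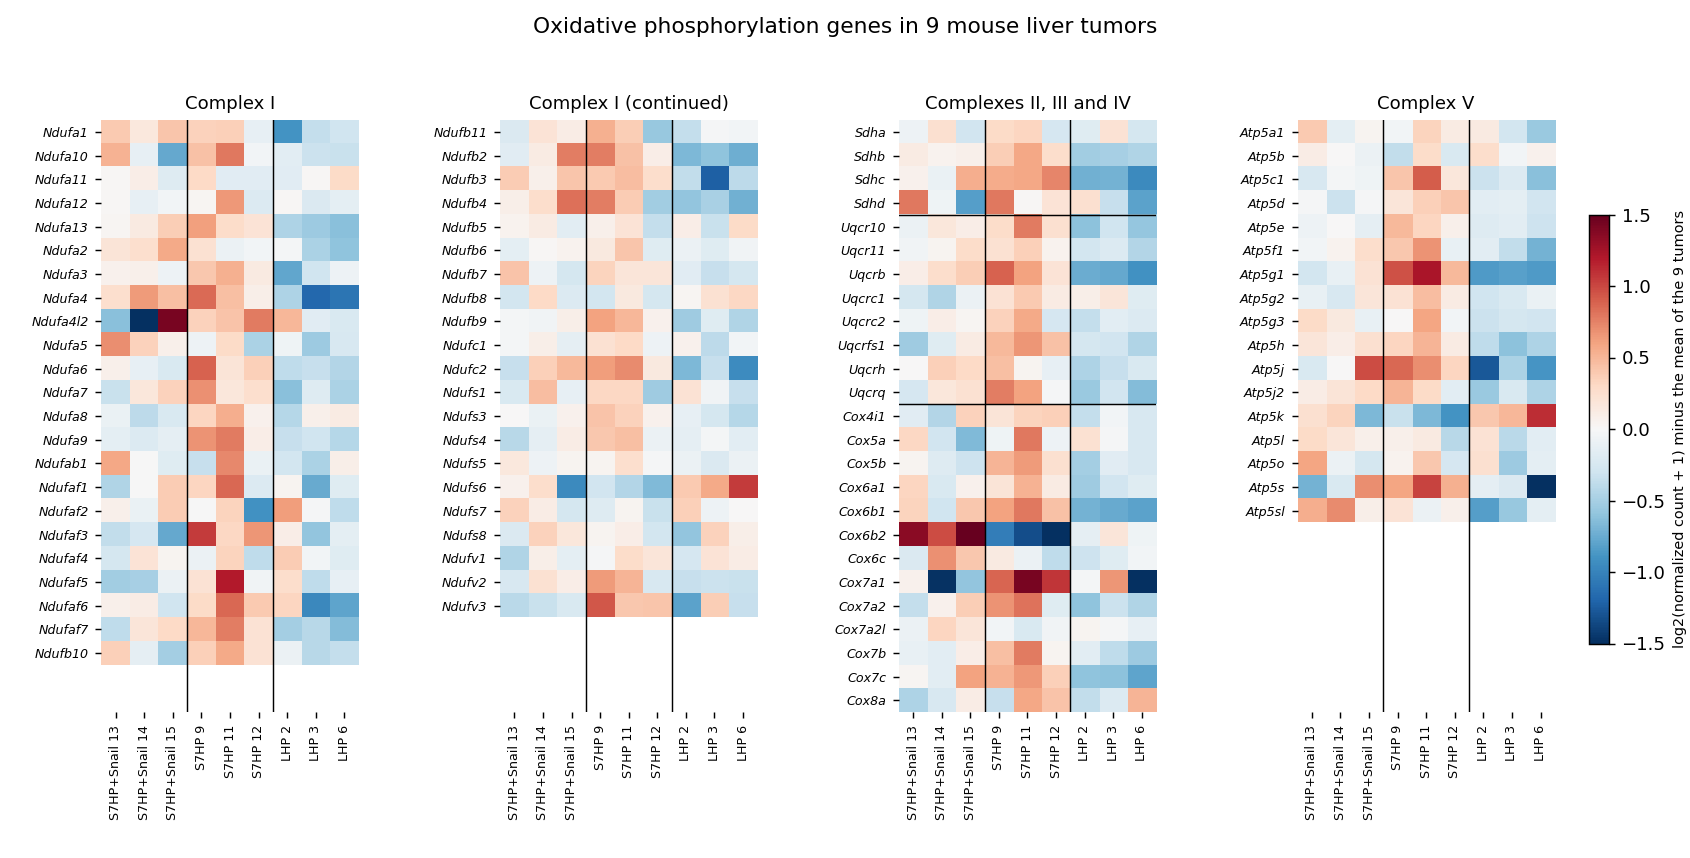
Log2(normalized count + 1) minus the mean of the 9 tumors for 86 of the 87 tested members (vertical) in each tumor (horizontal), with red above and blue below the mean and colors saturating at 1.5. LHP columns are mostly blue and the columns of S7HP tumors 9 and 11 mostly red, and Cox6b2, Atp5k and Ndufs6 run against the rest.

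Among the members placed in complex I by symbol, those that rose were accessory subunits, 1 assembly factor and Ndufa4, since assigned to complex IV. Of 7 core subunits 0 were called, and 3 (42.9%) were at a limma unadjusted p under 0.05, against 34.4% of all genes. Ndufa4 (GRCm38 chromosome 6, 11900292 to 11907497) was at 10.58, 10.97 and 10.78 in S7HP+Snail tumors, 11.18, 10.78 and 10.42 in S7HP tumors and 9.87, 9.15 and 9.24 in LHP tumors. S7HP+Snail and S7HP lay above LHP and overlapped each other. It rose by 1.37 ± 0.27 (SE) in S7HP against LHP (limma, Benjamini-Hochberg adjusted p = 0.009). Ndufc2 (chromosome 7, 97400003 to 97407802), a subunit of the membrane arm, was at 9.97, 10.68 and 10.80 in S7HP+Snail, 10.95, 11.03 and 10.46 in S7HP and 9.64, 9.97 and 9.37 in LHP. S7HP was above LHP in 3 of 3 tumors, by 1.16 ± 0.29 (SE, limma, Benjamini-Hochberg adjusted p = 0.0215), and S7HP+Snail tumor 13 was level with LHP tumor 3. Ndufc2 did not hold its call when LHP tumor 2 or 6 or S7HP tumor 9 or 11 was left out (adjusted p between 0.013 and 0.0826 over the alternatives, limma, Benjamini-Hochberg). The other accessory subunits that rose were Ndufb2 (1.11), Ndufb3 (1.04), Ndufa13 (0.91), Ndufa6 (0.87), Ndufa9 (0.87) and Ndufb9 (0.78), as log2 differences. Each of these 6 lost its call in 2 (Ndufa13) to 6 (Ndufb9) of the 16 alternatives, all of them without 1 LHP or S7HP tumor except plain eBayes variances for Ndufb9. The 3′ end of Ndufb2 overlaps Braf on the other strand, and whether counting used strand is not given in the sources used here.

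Of the 7 assembly factors Ndufaf1 to Ndufaf7, which help build complex I without staying in it, Ndufaf7 rose by 1.02 in S7HP against LHP (limma, Benjamini-Hochberg adjusted p = 0.0314), a call lost without any 1 LHP tumor or S7HP tumor 9 or 11. The median difference of the 7 was 0.63, with values between -0.27 and 1.02, and no test was made between assembly factors and subunits.

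Ndufs6 (chromosome 13, 73319838 to 73328542), a zinc-binding accessory subunit, was the complex I member that fell in S7HP. It was at 12.76, 12.95 and 11.74 in S7HP+Snail, 12.40, 12.25 and 12.03 in S7HP and 13.08, 13.26 and 13.74 in LHP. All LHP tumors were above all others, and the difference of S7HP from LHP was -1.13 ± 0.32 (SE, limma, Benjamini-Hochberg adjusted p = 0.0377). The call was lost without any 1 LHP or S7HP tumor and with plain eBayes variances (adjusted p between 0.0111 and 0.134 over the alternatives, limma, Benjamini-Hochberg).

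In complex II, which is also an enzyme of the citric acid cycle, Sdhc (chromosome 1, 171127165 to 171150603) was at 10.43, 10.27 and 10.92 in S7HP+Snail, 10.93, 10.95 and 11.10 in S7HP and 9.65, 9.66 and 9.42 in LHP. The 3 S7HP tumors were close together and above all others. Sdhc rose by 1.42 ± 0.22 (SE) in S7HP against LHP (limma, Benjamini-Hochberg adjusted p = 0.00334). Sdhb, the iron-sulfur subunit, rose by 0.89 ± 0.18 (SE), at 10.49, 10.42 and 10.44 in S7HP+Snail, 10.74, 10.94 and 10.63 in S7HP and 9.84, 9.87 and 9.92 in LHP (limma, Benjamini-Hochberg adjusted p = 0.01). Its groups did not overlap. The flavoprotein subunit Sdha differed by 0.19 and the second anchor Sdhd by 0.64, and neither passed.

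In complex III, Uqcrb (chromosome 13, 66900617 to 66905378), a subunit at the ubiquinone site, was at 10.45, 10.61 and 10.72 in S7HP+Snail, 11.23, 10.95 and 10.55 in S7HP and 9.60, 9.58 and 9.44 in LHP. It rose by 1.37 ± 0.22 (SE) in S7HP against LHP (limma, Benjamini-Hochberg adjusted p = 0.00397), and LHP lay below both other groups. The other members that rose were the small subunits Uqcrq (0.96) and Uqcr10 (0.93) and the Rieske iron-sulfur protein Uqcrfs1 (0.86), as log2 differences. Uqcrq and Uqcrfs1 lost their calls without any 1 LHP tumor or S7HP tumor 9 or 11, and Uqcr10 when LHP tumor 2, LHP tumor 6 or S7HP tumor 11 was omitted. Cyc1, the cytochrome c1 subunit, which the symbol rule does not take in, differed by 0.12 without passing (limma, Benjamini-Hochberg adjusted p = 0.742).

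In complex IV the isoforms of subunit 6B moved in opposite directions. Cox6b1 (chromosome 7, 30616861 to 30626151), the ubiquitous form, which sits where copies of the complex pair, was at 11.70, 11.06 and 11.77 in S7HP+Snail, 11.96, 12.15 and 11.80 in S7HP and 10.65, 10.61 and 10.56 in LHP. LHP lay below both other groups, and Cox6b1 rose by 1.36 ± 0.23 (SE) in S7HP (limma, Benjamini-Hochberg adjusted p = 0.00499). Cox6b2 (chromosome 7, 4751792 to 4753094), known as the testis form, was at 9.39, 9.02 and 10.12 in S7HP+Snail, 7, 6.71 and 6.02 in S7HP and 7.90, 8.22 and 7.97 in LHP. The 3 groups did not overlap, with S7HP lowest and S7HP+Snail highest. Cox6b2 fell in S7HP against LHP, with a difference of -1.45 ± 0.35 (SE, limma, Benjamini-Hochberg adjusted p = 0.02), a call that did not hold with LHP tumor 3 or 6 or S7HP tumor 12 left out (adjusted p between 0.0133 and 0.0716 over the alternatives).

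As a share of the normalized counts of both 6B isoforms, Cox6b2 took 16.7%, 19.5% and 24.1% in S7HP+Snail tumors, 3.09%, 2.23% and 1.77% in S7HP tumors and 12.9%, 16% and 14.2% in LHP tumors. The S7HP shares lay below all others, and the S7HP+Snail shares above all others. The start windows of the pair are shown because the isoforms moved apart. They come from RefSeq on GRCm38.p6, 250 bases before to 50 after the annotated start, at chr7:30626065-30626364 for Cox6b1 and chr7:4753045-4753344 for Cox6b2, both on the minus strand. Capitals mark matches to the ETS letters CCGGAAG on either strand, and the Cox6b2 window held no match to the NRF1, ETS, YY1 or estrogen-related receptor letters given further on.
Cox6b1: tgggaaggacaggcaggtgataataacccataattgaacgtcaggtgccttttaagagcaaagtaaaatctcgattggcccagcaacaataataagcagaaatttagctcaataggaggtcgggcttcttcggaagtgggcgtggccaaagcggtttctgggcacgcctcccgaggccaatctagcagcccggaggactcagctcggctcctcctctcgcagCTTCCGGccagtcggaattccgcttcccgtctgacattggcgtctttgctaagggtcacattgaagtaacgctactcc
Cox6b2: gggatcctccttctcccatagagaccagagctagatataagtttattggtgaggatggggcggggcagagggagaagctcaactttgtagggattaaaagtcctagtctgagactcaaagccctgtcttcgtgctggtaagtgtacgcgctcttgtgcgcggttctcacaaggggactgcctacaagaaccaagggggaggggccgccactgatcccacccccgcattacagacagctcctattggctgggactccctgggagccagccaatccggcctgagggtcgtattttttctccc

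Cox7c (chromosome 13, 86044816 to 86046904), another small subunit, rose by 1.18 ± 0.23 (SE) in S7HP (limma, Benjamini-Hochberg adjusted p = 0.00864), at 11.03, 10.84 and 11.60 in S7HP+Snail, 11.52, 11.65 and 11.36 in S7HP and 10.40, 10.38 and 10.21 in LHP. Its value is uncertain in part, since the last 150 bases of its transcript match a transcript of another gene, Gm10012, which is itself a symbol in the files. Cox7b (0.79) and Cox5b (0.78) also rose, as log2 differences, and were among the calls most often lost. Both were lost without any 1 LHP tumor, without S7HP tumor 9 or 11 and with plain eBayes variances, and Cox7b also without S7HP+Snail tumor 13, with no filter and with only the 2 groups in the fit (adjusted p up to 0.143 for Cox7b and 0.0914 for Cox5b, limma, Benjamini-Hochberg).

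The other tissue-specific isoforms of complexes I and IV were low or variable. Cox7a1, the heart and muscle form of subunit 7A, was at 5.33, 3.78 and 4.67 in S7HP+Snail, 6.14, 6.69 and 6.34 in S7HP and 5.24, 5.93 and 3.27 in LHP. Every S7HP tumor was above the others, but the differences of 1.58 ± 0.70 from LHP and -1.80 ± 0.70 with Snail (SE) did not pass (limma, Benjamini-Hochberg adjusted p = 0.143 and 0.219). Its parent Cox7a2 was at 11.37, 11.79 and 12.09 in S7HP+Snail, 12.40, 12.54 and 11.55 in S7HP and 11.12, 11.40 and 11.28 in LHP, so that Cox7a1 made up at most 2.6% of the pair. Ndufa4l2, known as a hypoxia-induced relative of Ndufa4, had an SD of 1.94 in S7HP+Snail, the largest of any member in that group, at 5.94, 4.11 and 7.99 in S7HP+Snail, against 6.91, 6.99 and 7.34 in S7HP and 7.06, 6.40 and 6.34 in LHP. It was called in no comparison, and its 3′ end overlaps Shmt2 on the other strand. Of the normalized counts of Ndufa4 and Ndufa4l2 it took 3.8%, 0.802% and 12.6% in S7HP+Snail, 4.9%, 6.69% and 10.5% in S7HP and 12.4%, 12.9% and 11.7% in LHP. Those shares lay above the Cox6b2 shares of the 6B pair in S7HP and below them in S7HP+Snail.

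Among the isoforms not tested, the lung and hypoxia form Cox4i2 was at 1.47, 2.26 and 3.31 in S7HP+Snail, 1, 1.29 and 2.19 in S7HP and 3.38, 1.83 and 1.74 in LHP, while Cox4i1 lay between 11.49 and 12.28 in all tumors. The muscle form Cox6a2 was at 3.06, 4.11 and 3.50 in S7HP+Snail, 2.12, 2.64 and 3.54 in S7HP and 0, 2.26 and 2.44 in LHP, and Cox6a1 lay between 10.62 and 11.67. Cox8a, the parent of Cox8b and Cox8c, lay between 11.51 and 12.55. In each of these pairs the general form stood far above the tissue form. Cox7b, the parent of Cox7b2, lay between 10.49 and 11.81.

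**Figure D4:**
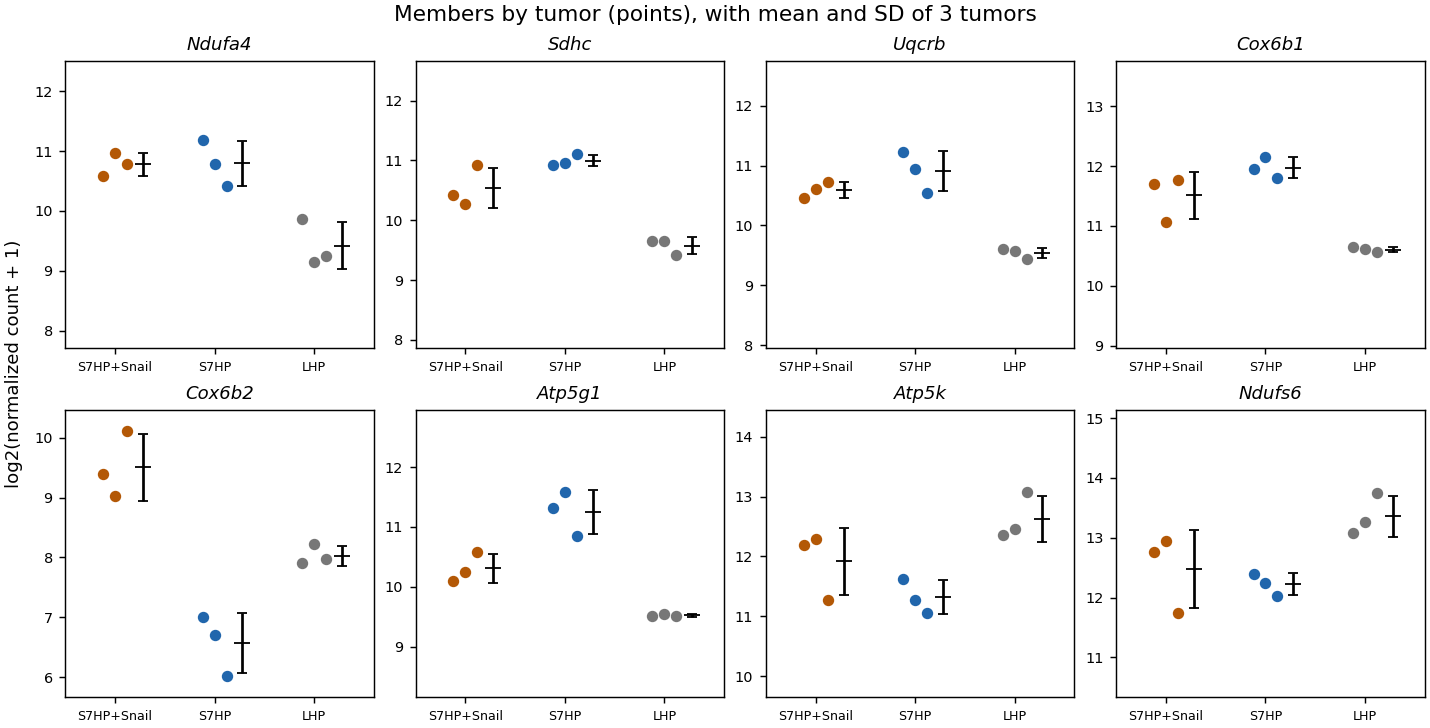
Log2(normalized count + 1) of 8 members in each tumor (points), with the mean and SD of the 3 tumors of a group beside them; every panel spans the same range of log2 values. LHP is lowest for Ndufa4, Sdhc, Uqcrb, Cox6b1 and Atp5g1 and highest for Atp5k and Ndufs6, and S7HP is lowest for Cox6b2.

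In complex V, Atp5g1 (chromosome 11, 96068852 to 96075670), which encodes the same mature c subunit as Atp5g2 and Atp5g3, had the largest rise of any member in S7HP against LHP. It was at 10.09, 10.25 and 10.58 in S7HP+Snail, 11.32, 11.58 and 10.85 in S7HP and 9.51, 9.55 and 9.51 in LHP. The 3 groups did not overlap, with S7HP+Snail between the others. Atp5g1 rose by 1.72 ± 0.24 (SE) in S7HP against LHP (limma, Benjamini-Hochberg adjusted p = 0.00193). Of the normalized counts of the 3 genes for the c subunit, Atp5g1 gave 2.21%, 2.71% and 3.93% in S7HP+Snail, 5.96%, 4.88% and 4.56% in S7HP and 2.23%, 2.21% and 2.17% in LHP, while Atp5g3 gave between 90.1% and 95.1% in all tumors. The last 150 bases of an annotated Atp5g1 transcript match transcripts of 3 other genes. Of these Cct6a is itself a symbol in the files, so the pair may share reads. The ends of Atp5g2 transcripts match 2 other genes and those of Atp5g3 match 0, so the shares of the 3 genes may be affected unequally.

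Atp5j (chromosome 16, 84827866 to 84835625), coupling factor 6 of the stalk, was at 11.18, 11.42 and 12.39 in S7HP+Snail, 12.27, 12.11 and 11.73 in S7HP and 10.14, 10.94 and 10.53 in LHP. It rose by 1.5 ± 0.34 (SE) in S7HP (limma, Benjamini-Hochberg adjusted p = 0.0151), a call that did not hold with LHP tumor 2 or 6 or S7HP tumor 9 left out (adjusted p between 0.00541 and 0.0553 over the alternatives). Atp5h, subunit d of the stalk, rose by 0.81, a call absent when LHP tumor 3, LHP tumor 6, S7HP tumor 9 or S7HP tumor 11 was omitted, and lay at 10.09, 10 and 10.14 in S7HP+Snail, 10.23, 10.41 and 10.03 in S7HP and 9.52, 9.29 and 9.44 in LHP. Of the 5 subunits of the catalytic F1 head, the γ subunit Atp5c1 rose (0.88), a call lost without any 1 LHP tumor, without S7HP tumor 9 or 11 and with plain eBayes variances, while the catalytic β subunit Atp5b differed by -0.21 without passing, and 3 of the 5 were at an unadjusted p under 0.05. Atp5k (chromosome 5, 108433244 to 108434448), subunit e of the membrane part, was at 12.20, 12.29 and 11.28 in S7HP+Snail, 11.63, 11.28 and 11.06 in S7HP and 12.36, 12.46 and 13.07 in LHP. LHP lay above both other groups, and the difference of S7HP from LHP was -1.31 ± 0.32 (SE, limma, Benjamini-Hochberg adjusted p = 0.0202), a call that did not hold with LHP tumor 6 or S7HP tumor 11 or 12 left out (adjusted p between 0.00919 and 0.0797 over the alternatives).

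The start windows of Atp5h, which rose, and Atp5k, which fell, are shown because each holds an NRF1 and an ETS match although the genes moved in opposite directions. They lie on the minus strand of GRCm38.p6 at chr11:115419870-115420169 and chr5:108434350-108434649 (RefSeq). Capitals mark, in 5′ to 3′ order, the NRF1 and ETS matches of Atp5h and the NRF1, ETS and estrogen-related receptor matches of Atp5k.
Atp5h: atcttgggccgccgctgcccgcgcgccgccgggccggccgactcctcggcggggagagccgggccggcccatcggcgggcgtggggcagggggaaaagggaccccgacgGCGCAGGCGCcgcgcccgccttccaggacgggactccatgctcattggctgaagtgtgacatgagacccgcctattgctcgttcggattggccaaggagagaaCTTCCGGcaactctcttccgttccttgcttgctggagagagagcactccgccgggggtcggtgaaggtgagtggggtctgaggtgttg
Atp5k: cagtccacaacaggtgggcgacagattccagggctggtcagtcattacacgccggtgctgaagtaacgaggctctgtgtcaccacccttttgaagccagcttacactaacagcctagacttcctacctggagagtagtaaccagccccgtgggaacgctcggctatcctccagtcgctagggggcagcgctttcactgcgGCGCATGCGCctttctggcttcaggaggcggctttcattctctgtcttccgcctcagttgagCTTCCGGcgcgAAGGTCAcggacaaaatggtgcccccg

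Such letters were searched on both strands of 80 RefSeq windows belonging to 74 members, and of 13688 windows of tested genes. The NRF1 letters GCGCANGCGC were in 25% of the members' windows and 8.91% of those of tested genes. The ETS letters CCGGAAG were in 21.2% and 15.6%, the YY1 letters AAGATGGC in 13.8% and 3.94%, and the estrogen-related receptor letters AAGGTCA in 10% and 3.51%. The SP letters GGGCGG, which are not capitalized above, were in 41.2% of members' windows and 59.1% of those of tested genes. Among members with a window, the NRF1 letters stood in 3 of 19 that rose in S7HP (Atp5c1, Atp5h and Ndufa6), 2 of 3 that fell (Atp5k and Ndufs6) and 14 of 52 that did not pass. A match is a description of the sequence and not a site, and no factor's binding was measured.

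Adding Snail to S7HP gave few calls among these genes. Of the 87 tested members 1 rose, Cox6b2, and none fell by limma, with 1 higher and 12 lower at an unadjusted p under 0.05 (14.9% of members, against 17.8% of all genes). Over all genes 2.3% were called, 1.01% higher and 1.29% lower. Cox6b2 rose by 2.93 ± 0.35 (SE, limma, Benjamini-Hochberg adjusted p = 0.00517), in 3 of 3 tumors, and kept its call in all 16 alternatives. The other members leaned lower without passing: the median difference was -0.29 (a fold of 0.818) against -0.02 over all genes, and 22 of 87 were above 0. Every S7HP+Snail tumor lay below every S7HP tumor in 20 members, where the share over all genes was 11%, and above in 1, Cox6b2, where the share was 9.53%. By complex the medians were -0.20 for I, -0.35 for II, -0.34 for III, -0.41 for IV and -0.15 for V. They moved by over 1.5 times when single tumors were omitted, to -0.36 in I without S7HP tumor 12, to -0.17 in II without S7HP+Snail tumor 15, to -0.20 in III without S7HP tumor 9, to -0.25 and -0.23 in IV without S7HP tumor 11 and S7HP+Snail tumor 14, and to -0.05 and -0.24 in V without S7HP tumors 11 and 12.

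The 3 members nearest to a call after Cox6b2 were Atp5g1, Uqcrfs1 and Ndufaf3, named after their values were seen. Their log2 differences of S7HP+Snail from S7HP were -0.94 ± 0.24, -0.72 ± 0.22 and -1.14 ± 0.35 (SE, limma, Benjamini-Hochberg adjusted p = 0.0787, 0.117 and 0.123). In each of the 3 all S7HP+Snail tumors were below all S7HP tumors. The median over members moved to -0.18 without S7HP tumor 9 and to -0.19 without S7HP tumor 11 or S7HP+Snail tumor 13. Ndufa4 differed by -0.02 and did not pass.

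In S7HP+Snail against LHP 5 of 87 members rose, none fell by limma (22 higher and 1 lower at an unadjusted p under 0.05, or 26.4% of members against 25.1% of all genes) and 82 did not pass. The share called over all genes was 7.22%, with 3.35% higher and 3.87% lower, and the members called higher were 5.75% of those tested. They were Cox6b2 (1.48 ± 0.35), Ndufa4 (1.35 ± 0.27), Uqcrb (1.05 ± 0.22), Sdhc (0.97 ± 0.22) and Cox6b1 (0.91 ± 0.23), as log2 differences with SE (limma, Benjamini-Hochberg adjusted p = 0.0366, 0.0213, 0.0242, 0.032 and 0.0462). Both 6B isoforms of complex IV were thus called higher in S7HP+Snail than in LHP, but the call was lost in 11 of 16 alternatives for Cox6b1 and in 7 for Cox6b2. The median over members was 0.27, against 0 over all genes, and 68 of 87 were above 0. In 37 members all S7HP+Snail tumors lay above all LHP tumors and in 2, Atp5k and Ndufs6, below, where the shares over all genes were 14.7% and 15.8%. By complex the medians were 0.19 for I, 0.42 for II, 0.47 for III, 0.30 for IV and 0.32 for V. The count of 5 fell to 1, 0 and 0 without LHP tumors 2, 3 and 6, to 3 without S7HP tumor 11, and to 2 and 1 without S7HP+Snail tumors 13 and 15, and none of the 5 calls was kept in all 16 alternatives. Calls over all genes tested, 1026 in the main fit, ranged from 293 to 1049 with 1 tumor left out. The comparisons with LHP share its 3 tumors, and the comparisons with S7HP share theirs, so they are not independent of each other.

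Genes that work beside the members were read from lists named by function, against 9.47% higher and 9.54% lower over all genes in S7HP against LHP. Of 21 tested electron carriers and subunits outside the symbol rule, 4 rose (19%) and none fell, with a median of 0.23 and 9 of 21 (42.9%) at an unadjusted p under 0.05, where the share over all genes was 34.4%. They were both chains of the electron transfer flavoprotein, Etfb (1.22) and Etfa (1.06), the ubiquinone synthesis protein Coq9 (1.19) and the ADP/ATP carrier Slc25a5 (1.06). Of 41 assembly factors outside the rule 5 rose (12.2%) and 1 fell (2.44%), among them the complex I factors Tmem126b (1.93), Tmem126a (1.59) and Foxred1 (1.16), while the complex III factor Ttc19 fell (-0.84), with a median of 0.38. Of 19 genes of the citric acid cycle and pyruvate dehydrogenase 4 rose (21.1%) and 1 fell (5.26%), with Suclg2 at 1.44, Suclg1 and Idh3b at 1.12 and Fh1 at 1.02, and a median of 0.23. Of 77 mitochondrial ribosomal proteins 7 rose (9.09%), a share near that of all genes, and 1 fell (1.3%), with Mrpl50 at 1.31, Mrps18b at 1.25, Mrps14 at 1.14 and Mrpl3 at -1.24, and a median of 0.37. Of 94 cytosolic ribosomal proteins 4 rose (4.26%) and 1 fell (1.06%), both below the shares of all genes, with Rpl29 at 1.10, Rps19 at 0.98, Rps28 at 0.83 and Rpl24 at -0.88, and a median of 0.28. These medians lie between that of all genes (0.02) and that of the members (0.55), and no test was made between lists.

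Of 20 tested regulators of mitochondrial biogenesis 1 rose (5%) in S7HP against LHP and none fell, where 9.47% of all genes rose, and 6 of 20 (30%) were at an unadjusted p under 0.05, against 34.4% of all genes. The gene that rose was Ppargc1a, the coactivator PGC-1α, at 4.57, 6.11 and 5.43 in S7HP+Snail, 6.80, 8.79 and 6.84 in S7HP and 5.79, 4.27 and 5.57 in LHP. Every S7HP tumor was above the others, and the difference from LHP was 2.27 (limma, Benjamini-Hochberg adjusted p = 0.0412). The median of that list was 0.07, and Nrf1 and Esrra, both regulators of these genes, differed by -0.51 and -0.15 without passing. Of 20 hypoxia targets 1 rose, the mitochondrial protease Lonp1 (0.70), and 2 fell, P4ha2 (-2.04) and Mxi1 (-1.55), with a median of 0.15. These are 5% higher and 10% lower, against 9.47% and 9.54% of all genes. With Snail added, none of these 7 lists had a member called against S7HP by limma. Unadjusted p was under 0.05 for 0 of 21 carriers, 5 of 41 assembly factors, 1 of 19 citric acid cycle genes, 7 of 77 mitochondrial and 5 of 94 cytosolic ribosomal proteins, 2 of 20 regulators and 7 of 20 hypoxia targets, of which the hypoxia targets (35%) alone were above the 17.8% of all genes. The medians were -0.21, -0.26, -0.02, -0.27, -0.09, 0.15 and -0.82 in the same order. Against LHP, Etfb (1.07), Suclg1 (0.86) and Mrpl50 (0.94) were the members of these lists that rose in S7HP+Snail, and none fell.

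Cell type markers were read beside the members, against 9.47% higher and 9.54% lower over all genes in S7HP against LHP. In S7HP+Snail against LHP the shares over all genes were 3.35% and 3.87%. Of 15 hepatocyte markers 5 rose (33.3%) and none fell in S7HP against LHP, with Alb at 2.72 and Hnf4a at 3.05, and 2 rose (13.3%) in S7HP+Snail against LHP. Their summed normalized counts ranged from 166000 to 428000 in S7HP+Snail, from 201000 to 725000 in S7HP and from 83900 to 152000 in LHP. Within S7HP the sum was highest in tumor 9, where Ahsg lay at log2 18.29 and Alb at 17.32, so a few abundant genes weigh heavily in it. Of 9 stellate cell and fibroblast markers 5 fell (55.6%) in S7HP and none rose, and 3 fell (33.3%) in S7HP+Snail against LHP, with sums of 13800 to 22300 in S7HP+Snail, 6870 to 10200 in S7HP and 38300 to 53500 in LHP. Of 10 macrophage markers 2 fell (20%) in S7HP against LHP, with sums of 5220 to 10300 in S7HP+Snail, 3610 to 6330 in S7HP and 7270 to 11700 in LHP. Of 8 endothelial markers Plvap alone was called (12.5%). It fell in S7HP against LHP and rose with Snail added to S7HP, where 1.01% of all genes rose. The endothelial sums were 3130 to 4980 in S7HP+Snail, 1450 to 2880 in S7HP and 3120 to 4450 in LHP, with S7HP below both other groups. With Snail added to S7HP all 8 endothelial markers were above 0, with a median of 1.11. Of these, 5 of 8 (62.5%) were at a limma unadjusted p under 0.05, against 17.8% of all genes. In S7HP against LHP 2 of 8 were above 0, with a median of -0.71. The erythroid list had 1 of 7 members higher (14.3%) in both groups against LHP, with all 7 above 0 in both (medians 1.46 for S7HP+Snail and 1.4 for S7HP) and sums of 13000 to 81900 in S7HP+Snail, 11300 to 61900 in S7HP and 6370 to 22100 in LHP. A single call in lists of 7 or 8 genes is not by itself read as a change of the cell type. None of 4 tested neutrophil or 5 tested T, NK and B cell markers was called by limma in any comparison, with at most 1 at an unadjusted p under 0.05, but all were above 0 in both groups against LHP. The median differences from LHP were 1.34 in S7HP+Snail and 1.61 in S7HP for the neutrophil markers, and 0.74 in S7HP+Snail and 2.04 in S7HP for the T, NK and B cell markers. Neutrophil sums were 3440 to 31900 in S7HP+Snail, 6340 to 15700 in S7HP and 1380 to 9840 in LHP, and T, NK and B cell sums were 69.3 to 402 in S7HP+Snail, 129 to 334 in S7HP and 15.6 to 230 in LHP, so the groups overlapped for both. The part of these cell types in the members' differences was not tested.

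Muscle and brown fat, which are rich in mitochondria, had few markers that passed the filter. Of 8 muscle markers 2 were tested and neither was called (limma, with at most 1 at an unadjusted p under 0.05). Myh2 and Myh6 were listed at 0 in all tumors. The summed muscle level was 44.9 to 788 normalized counts in S7HP+Snail, 186 to 364 in S7HP and 27 to 231 in LHP. For Acta1 every S7HP tumor lay above every LHP tumor, with a difference of 3.2, while the other tested muscle marker differed by -3.66. Of 4 brown adipocyte markers Cidea alone was tested, and it rose by 6.52 in S7HP against LHP (limma, Benjamini-Hochberg adjusted p = 0.0262), at 7.71, 1.83 and 8.89 in S7HP+Snail, 10.5, 11.16 and 11.52 in S7HP and 6.88, 4.6 and 2.15 in LHP. Ucp1, the defining gene of brown fat, was listed at 0 in all S7HP+Snail and S7HP tumors and at 1.87, 0 and 2.44 in LHP tumors. The brown adipocyte sums were 2.56 to 472 in S7HP+Snail, 1450 to 2940 in S7HP and 7.89 to 124 in LHP. In S7HP nearly all of that sum was Cidea. The part of muscle or brown fat in the members' differences was not tested.

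Across the 87 tested members, the annotated transcript length and the difference of S7HP from LHP had a Spearman rho of -0.001, as a description over genes that share libraries. The last 150 bases of 8 members' transcripts matched another gene's transcript over at least 100 bases at 95% identity or more. Among these 8 members the median difference was 0.64 with 4 called higher (Cox7c, Atp5c1, Atp5g1 and Atp5h), and among the other 79 it was 0.55 with 19 called higher and 3 lower. A total of 10 members had an exon of another gene on the opposite strand at the 3′ end, and 1 on the same strand.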

How the data were processed

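Per the labels' protocols, Trizol RNA (500 ng) of 9 mouse liver tumors, 3 per group, went into QuantSeq 3′ libraries. Bowtie2, edgeR and mm10 appear in the submitters' processing notes, with no version or role. The sources used here do not give the counting tool, its use of strand or the annotation.

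The authors deposited, for 24421 symbols per tumor, what the values show to be log2 of a quantile-normalized count plus a pseudocount of 1: totals agree closely, and 9 times the unlogged value is whole within 0.001 for over 95.6% of values in each file. Raw counts were not analysed here, so no interval from depth is given, and differences understate changes of genes near 0.

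A gene entered the fit (14215 did) if at least 3 libraries had a log2 value of 4 or more. All 9 tumors were fitted in limma 3.58.1 (R 4.3.3, lmFit, eBayes with trend and robust variances), with 6 residual degrees of freedom, two-sided tests and Benjamini-Hochberg adjustment over all genes fitted. Calls are at an adjusted p under 0.05, SE comes from limma, and SD covers the 3 tumors. Whether tumors were from separate animals is not stated in the labels, so p-values reflect the spread of these samples. The fit was also run on simulated independent normal values with known changes. These carry neither quantile normalization nor correlation between genes, so that run checked the code and not the calls made here.

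Members and lists were chosen with earlier results of these data known. Values in every tumor are given for the called members with the largest differences (up to 8 each way per comparison) and for tissue-specific isoforms. The highest member of each complex and the isoforms' parents may be given by group mean or range, and called genes of other lists, up to 4 by smallest adjusted p, by their differences. Sdha, Sdhb, Sdhd, Cyc1, Atp5b, Atp5h, Uqcrfs1, Ndufaf3, Nrf1 and Esrra were named after their values were seen, and 1 member is counted but not reported by itself here.

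All 92 members matched a GENCODE M21 gene on GRCm38, 1 of them through a RefSeq synonym, and 74 had a RefSeq start window. Transcript ends were compared with BLAST+ 2.17.0, and figures drawn with matplotlib 3.10.9. Alternatives were other filters, scalings, pseudocounts, variance models and libraries in the fit, and leaving out each tumor in turn.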

Additional observations from a re-analysis of the deposited data

How the results depend on the processing

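The 26 members called in S7HP against LHP kept their direction in all alternatives, and calls were lost mainly when a tumor was left out. No paired analysis was possible because tumor numbers are not shared between groups. With only the 2 groups compared in the fit, the genes called numbered 120 in S7HP+Snail against S7HP and 682 in S7HP+Snail against LHP, and members called higher in S7HP+Snail against LHP numbered 3, or 2 with plain eBayes variances. Leaving out 1 tumor at a time, genes called ranged from 1465 to 3163 in S7HP against LHP, from 63 to 451 in S7HP+Snail against S7HP and from 293 to 1049 in S7HP+Snail against LHP. In S7HP against LHP, members called higher ranged from 8 to 28 and members called lower from 0 to 3, while the members' median difference stayed between 0.51 and 0.70. In S7HP+Snail against S7HP, 1 member was called higher and 0 lower each time, and the median over members ranged from -0.39 to -0.18, with -0.36 to -0.14 in complex I, -0.40 to -0.17 in II, -0.48 to -0.20 in III, -0.56 to -0.23 in IV and -0.24 to -0.05 in V. In S7HP+Snail against LHP, members called higher ranged from 0 to 6, and the medians ranged from 0.30 to 0.62 in complex II and from 0.23 to 0.46 in V. Fits without a tumor also hold fewer libraries, and the cause of these shifts was not tested. Values near the lowest steps of a library are limited by depth, which the deposited scale does not keep.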
